A study of Mus musculus with 8 samples.

Results

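The expression of 10 genes of the cadherin switch and of epithelial to mesenchymal transition (EMT) was followed by RNA-seq in mouse embryonic stem cells (ESC) and in cells to which these had been differentiated by retinoic acid (RA-DIFF). They are the cell adhesion genes Cdh1, Cdh2 and Epcam, the transcription factors Snai1, Snai2, Zeb1, Zeb2, Twist1 and Twist2, and the intermediate filament gene Vim, and they were chosen by symbol from the 32567 genes counted, with all 10 found. The 4 RNA-seq libraries were made from wild-type ESC, from huntingtin-null ESC carrying Hdh ex4/5 on both chromosomes (Htt-null), and from RA-DIFF cells of the same pair of lines, and the 4 matching small RNA libraries were used for miRNAs. Each condition has 1 library per assay, so no difference below has a replicate check and no p-value is given. Both lines had been grown on feeder fibroblasts and then passaged 4 times without them before embryoid bodies were made, and RA-DIFF cells were collected soon after plating, so that they represent one early stage of one differentiation of each line.

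Epithelial cells hold together through E-cadherin, the product of Cdh1, at adherens junctions. In EMT, and when the neural plate forms in the embryo, E-cadherin gives way to N-cadherin, the product of Cdh2. The Snail (Snai1, Snai2), Zeb (Zeb1, Zeb2) and Twist factors bind E-box motifs, and the Snail and Zeb factors are known as direct repressors of Cdh1. The miR-200 family of miRNAs is known to repress Zeb1 and Zeb2, which in turn repress the miR-200 genes. ESC have many epithelial features, and Zeb2 is known for a role in the exit towards neural fates.

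The miR-200 family falls into 2 groups by seed (bases 2 to 8, in capitals), shown here because matches to these letters set Zeb1 and Zeb2 apart from the other 8 genes. The mature sequences are those of RefSeq (GRCm38.p6), which held 15 of the 16 miRNAs described below. miR-200b, miR-200a and miR-429 lie together on chromosome 4 and miR-200c and miR-141 on chromosome 6, so each cluster holds both seeds.
miR-200b-3p: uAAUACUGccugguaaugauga
miR-200c-3p: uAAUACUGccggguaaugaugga
miR-429-3p: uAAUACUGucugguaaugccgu
miR-200a-3p: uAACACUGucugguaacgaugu
miR-141-3p: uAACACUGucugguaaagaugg

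The complement of the first seed is CAGTATT and that of the second is CAGTGTT, read on the mRNA strand. The annotated 3' untranslated region of Zeb2 (4941 bases) held 9 such matches, 5 of CAGTATT and 4 of CAGTGTT, and that of Zeb1 (2401 bases) held the same numbers. Only 3 of 21005 genes (0.0143%) had as many matches to both seeds together, the third being D10Wsu102e, named after its count had been seen. Snai2 held 2 matches and Snai1 held 1, while Cdh1, Cdh2, Epcam, Twist1, Twist2 and Vim held none. For comparison, 13.3% of all genes had a CAGTATT and 17.2% a CAGTGTT in this region. The longest annotated region per gene was used, and its median length over all genes was 961 bases, shorter than in Zeb1 and Zeb2. Per kb, CAGTATT and CAGTGTT occurred 1.01 and 0.810 times in Zeb2 and 2.08 and 1.67 times in Zeb1, beside 0.108 and 0.149 over all genes. Of the Zeb2 matches, 3 are shown as examples of both seeds, each within 29 bases of the minus strand of chromosome 2 (GRCm38), with the match in capitals.
Zeb2 at chr2:44988098-44988126: ctacagtgcatCAGTATTacgattcctca
Zeb2 at chr2:44987736-44987764: agcacccgtgtCAGTATTagacgactagg
Zeb2 at chr2:44987815-44987843: ccatccttgtaCAGTGTTcagagggtaac

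The RNA-seq libraries held 63617410 to 110569127 counts and the small RNA libraries 11976744 to 25656673. Levels are counts per 1000000 counts of a library (CPM), scaled by TMM, a factor that aligns the bulk of genes between libraries. A gene was called higher or lower when its log2 ratio passed 0.75 (1.68-fold) and its average log2 CPM, which edgeR takes over the 4 libraries as close to the log2 of the mean CPM, was above 0, which 15489 genes and 9 of the 10 described here reached (Twist2 did not). A gene can thus pass with under 1 CPM at one stage if it is high at the other, and the direction of its RA response is then set by the limit; 0 of the 9 were under 1 CPM in both libraries of a stage, with Zeb2 nearest to it at 0.876 and 1.04 CPM in wild-type and Htt-null ESC. Intervals in brackets are exact 95% intervals of the count ratio, which cover counting error only. Htt itself, the targeted gene, stood at 166 CPM in wild-type and 111 CPM in Htt-null ESC, but at 73.3 CPM in RA-DIFF labelled wild type and 98.7 CPM in RA-DIFF labelled Htt-null. The log2 ratios of Htt, -0.58 between the ESC libraries and 0.43 between the RA-DIFF libraries as labelled, both lie inside the limit. In Htt reads the RA-DIFF pair goes against its labels. For the genes that could be compared, the per-condition values of the study follow the ESC columns as labelled and the RA-DIFF columns exchanged. Which assignment is right cannot be told from these values. Each RA-DIFF library is therefore called by its label, and the sign of any difference within the RA-DIFF pair is the reverse if the labels are exchanged. Pluripotency markers summed to 5585 and 4684 CPM in wild-type and Htt-null ESC and to 60.9 and 20.4 CPM in RA-DIFF labelled wild type and Htt-null, and neural progenitor markers were at 694 and 615 CPM in ESC and at 2912 and 2953 CPM in RA-DIFF.

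RA-differentiation was accompanied by an almost complete exchange of cadherins. Of the 10 genes, Cdh2, Snai1, Zeb1, Zeb2, Twist1 and Vim were called higher in RA-DIFF than in ESC of the cells labelled wild type (6 genes, where 34.1% of all genes tested were higher), and Cdh1 and Epcam were called lower (2 genes, where 25.9% were lower). In the cells labelled Htt-null, the same 6 genes and Snai2 were higher (7 genes, against 34.5%) and the same 2 genes were lower (against 24.6%). The median log2 ratio over the 9 genes above the expression limit was 1.78 and 2.45 in the cells labelled wild type and Htt-null, beside 0.13 and 0.18 over all genes tested.

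**Figure D1:**
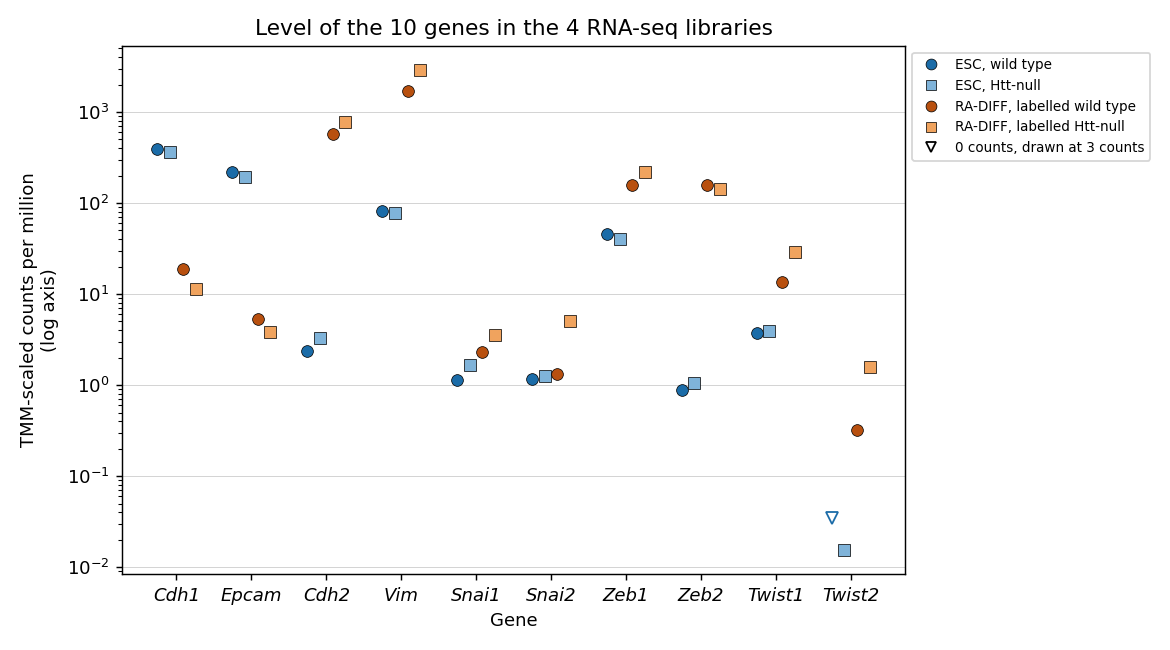
Level of each gene in the 4 RNA-seq libraries, as TMM-scaled CPM on a log axis. Circles are wild-type or labelled wild-type libraries, squares Htt-null or labelled Htt-null ones, blue is ESC and orange RA-DIFF; the open triangle marks 0 counts of Twist2, drawn at the level of 3 counts. The ESC points lie above the RA-DIFF points for Cdh1 and Epcam and below them for Cdh2, Vim, Zeb1, Zeb2 and Twist1.

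Cdh1 (ENSMUSG00000000303, chr8:106603351-106670246 on GRCm38, plus strand) encodes E-cadherin. Its level was 390 CPM in wild-type ESC, 363 CPM in Htt-null ESC, 18.6 CPM in RA-DIFF labelled wild type and 11.4 CPM in RA-DIFF labelled Htt-null. Both ESC libraries were thus high and both RA-DIFF libraries low. The log2 ratio of RA-DIFF to ESC was -4.39 (-4.45 to -4.32) in the cells labelled wild type and -4.99 (-5.08 to -4.91) in those labelled Htt-null, that is 20.9-fold and 31.8-fold lower. The median log2 ratio of the genes of chromosome 8 was 0.56 and 0.01 in the same comparisons, and 0.36 between the ESC libraries, where Cdh1 itself stood at -0.10 (-0.13 to -0.08).

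Cdh2 (ENSMUSG00000024304, chromosome 18), which encodes N-cadherin, had the opposite pattern. It gave 207 counts in wild-type ESC, 215 in Htt-null ESC, 64420 in RA-DIFF labelled wild type and 75884 in RA-DIFF labelled Htt-null, or 2.39, 3.30, 575 and 771 CPM. Cdh2 was 239-fold and 232-fold higher in RA-DIFF than in ESC of the cells labelled wild type and Htt-null, at log2 ratios of 7.90 (7.72 to 8.12) and 7.86 (7.68 to 8.07). These ratios placed it 172nd and 145th from the top of the 15489 genes.

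Within a library, the ratio of 2 genes does not depend on scaling. There were 164 Cdh1 reads for each Cdh2 read in wild-type ESC and 110 in Htt-null ESC, while in RA-DIFF there were 30.8 Cdh2 reads for each Cdh1 read in the library labelled wild type and 67.6 in the one labelled Htt-null. Per length of exon, Cdh1 exceeded Cdh2 by 288-fold and 194-fold in wild-type and Htt-null ESC, and Cdh2 exceeded Cdh1 by 17.5-fold and 38.3-fold in RA-DIFF labelled wild type and Htt-null. The ratio of Cdh1 to Cdh2 thus moved by a log2 of -12.30 (-12.51 to -12.09) in the cells labelled wild type and of -12.86 (-13.07 to -12.65) in those labelled Htt-null. Between genotypes it was lower by a log2 of -0.57 (-0.85 to -0.29) in Htt-null ESC, and by -1.13 (-1.24 to -1.03) in RA-DIFF labelled Htt-null. With the RA-DIFF labels exchanged the last value becomes 1.13, opposite to the sign in ESC.

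**Figure D2:**
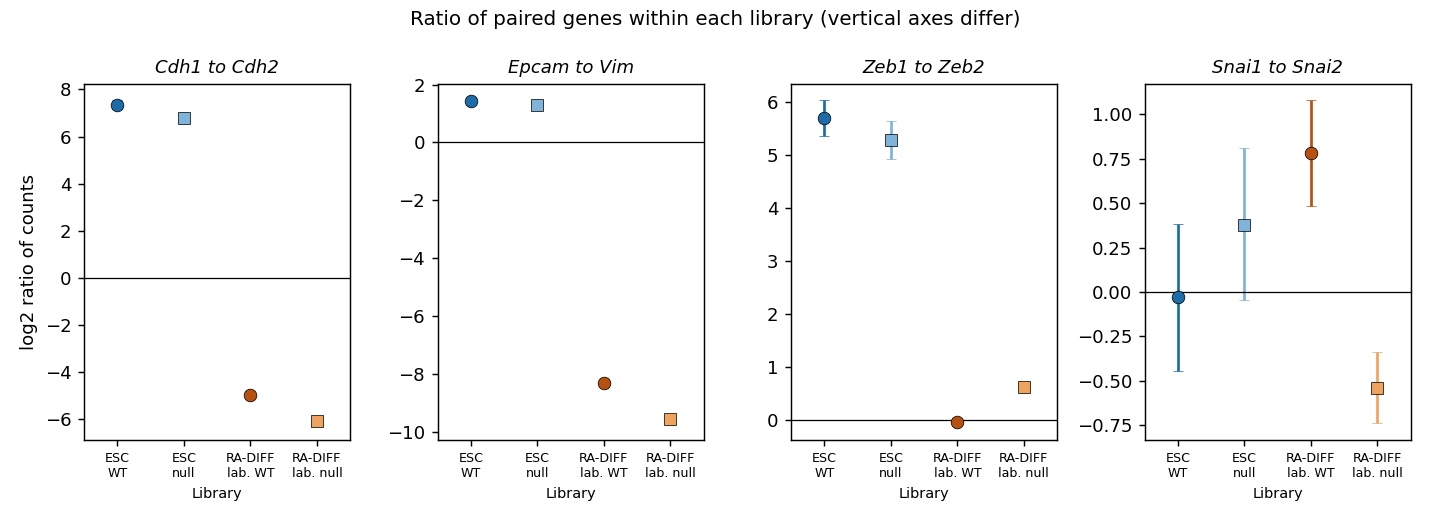
Log2 ratio of the counts of 2 genes within each library, for Cdh1 to Cdh2, Epcam to Vim, Zeb1 to Zeb2 and Snai1 to Snai2; bars are exact 95% counting intervals, some smaller than the symbols, and the vertical axes differ. The first and second pairs cross 0 between ESC and RA-DIFF, Zeb1 to Zeb2 lies above 5 in ESC and below 1 in RA-DIFF, and Snai1 to Snai2 lies between -0.54 and 0.78.

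Epcam (ENSMUSG00000045394, chr17:87635979-87651106, plus strand), an epithelial adhesion molecule that ESC also carry, was at 219 and 192 CPM in wild-type and Htt-null ESC and at 5.36 and 3.86 CPM in RA-DIFF labelled wild type and Htt-null. The RA-DIFF levels were 40.6-fold and 49.4-fold lower, at log2 ratios of -5.34 (-5.47 to -5.23) and -5.63 (-5.78 to -5.49). RA-DIFF kept 2.45% and 2.01% of the ESC level of Epcam and 4.78% and 3.14% of that of Cdh1, in the cells labelled wild type and Htt-null. The 10 pluripotency markers lay at 0.328% to 2.75% and at 0.0264% to 12.2% of their ESC levels, among them Pou5f1 at 1.56% and 0.190%. Cdh1 kept more of its ESC level than 10 and 9 of these markers in the cells labelled wild type and Htt-null, and Epcam more than 9 in each; the part of remaining pluripotent cells in the Cdh1 and Epcam reads of RA-DIFF was not tested. In bulk RNA, fewer cells of a type and less RNA per cell cannot be told apart.

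Of the 10 genes, 6 matched a promoter in the RefSeq table (Epcam, Snai1, Zeb2, Twist1, Twist2 and Vim), and the E-box CAGGTG, read as CACCTG on the other strand, was searched in the 250 bases before each start. It was found in Epcam, in 2 copies lying 187 and 19 bases before the start, and in Snai1, in 1 copy 126 bases before the start. Of 32851 promoters of the same length, 17.2% held at least 1 copy and 2.06% at least 2. The match is to letters only. The Epcam promoter is shown because it holds both copies, in capitals (GRCm38.p6, plus strand).
Epcam at chr17:87635729-87635978: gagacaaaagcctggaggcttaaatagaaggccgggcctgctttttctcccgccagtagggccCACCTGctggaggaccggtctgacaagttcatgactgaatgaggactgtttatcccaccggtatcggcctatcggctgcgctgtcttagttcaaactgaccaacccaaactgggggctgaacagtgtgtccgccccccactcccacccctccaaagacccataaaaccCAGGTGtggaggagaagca

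Vim (ENSMUSG00000026728, chr2:13573927-13582826, plus strand) encodes vimentin, the filament protein of mesenchymal cells and of neural progenitors. It was at 80.9 and 77.9 CPM in wild-type and Htt-null ESC, and at 1712 and 2906 CPM in RA-DIFF labelled wild type and Htt-null. RA-DIFF was 21.1-fold higher (log2 ratio 4.40, 4.37 to 4.44) in the cells labelled wild type and 37.3-fold higher (5.22, 5.18 to 5.26) in those labelled Htt-null. For each Epcam read there were 319 Vim reads in RA-DIFF labelled wild type and 753 in RA-DIFF labelled Htt-null, whereas ESC held 2.70 and 2.46 Epcam reads for each Vim read.

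Among the 5 transcription factors above the expression limit, Zeb2 differed most between the stages and Snai1 and Snai2 least. Zeb2 (ENSMUSG00000026872, chr2:44983632-45117395, minus strand) gave 76 counts in wild-type ESC, 68 in Htt-null ESC, 17915 in RA-DIFF labelled wild type and 14037 in RA-DIFF labelled Htt-null. It was 178-fold and 134-fold higher in RA-DIFF, at log2 ratios of 7.48 (7.19 to 7.86) and 7.07 (6.75 to 7.46), close to those of Cdh2. Zeb1 (ENSMUSG00000024238, chromosome 18), its paralog, was already at 45.4 and 40.5 CPM in wild-type and Htt-null ESC and reached 157 and 221 CPM in RA-DIFF labelled wild type and Htt-null, 3.45-fold and 5.46-fold higher. Per length of exon, Zeb1 exceeded Zeb2 by 101-fold and 75.4-fold in ESC but by 1.90-fold and 3.01-fold in RA-DIFF, in the same order. The antisense gene Zeb2os, whose reads can be told apart from those of Zeb2 only where the counting used strand, gave 7, 0, 246 and 76 counts in the order of the Zeb2 counts above, and the opposite-strand genes of Zeb1 gave up to 143.

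Twist1 (ENSMUSG00000035799, chr12:33957671-33959817, plus strand), a basic helix-loop-helix factor of mesoderm and neural crest, was at 3.77 and 3.92 CPM in wild-type and Htt-null ESC, and at 13.6 and 29.3 CPM in RA-DIFF labelled wild type and Htt-null. Its log2 ratios of RA-DIFF to ESC were 1.84 (1.67 to 2.02) and 2.89 (2.72 to 3.09). Twist2 (ENSMUSG00000007805, chr1:91801461-91848028, plus strand) gave 0 counts in wild-type ESC, 1 in Htt-null ESC, 36 in RA-DIFF labelled wild type and 154 in RA-DIFF labelled Htt-null, and lay below the expression limit. In the cells labelled wild type, where ESC had 0 counts, the exact interval puts it at least 7.17-fold higher in RA-DIFF; set against a floor of 3 counts for the ESC library, the bound is 9.29-fold. In the cells labelled Htt-null, the ratio to the single ESC count was 102 (18 to 4055). Up to 24 reads of the antisense gene Gm29100 and 20 of the intronic gene Gm29101 were counted beside it in RA-DIFF.

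Snai1 (ENSMUSG00000042821, chr2:167538195-167542814, plus strand) stayed low throughout, with 99 and 108 counts in wild-type and Htt-null ESC and 258 and 347 in RA-DIFF labelled wild type and Htt-null. Its log2 ratios were 1.00 (0.67 to 1.36) and 1.08 (0.77 to 1.41), so that both lower bounds lie close to the limit of 0.75, and both calls are lost when a dispersion of 0.1 between libraries is assumed, the first also with a limit of 1 and the second also with the RA-DIFF labels exchanged. Snai2 (ENSMUSG00000022676, chr16:14705852-14709395, plus strand), the family member typical of neural crest and mesenchyme, gave 101 and 83 counts in wild-type and Htt-null ESC, 150 in RA-DIFF labelled wild type and 504 in RA-DIFF labelled Htt-null. It was not called in the cells labelled wild type (log2 ratio 0.20, -0.17 to 0.58) and was called higher in those labelled Htt-null (1.99, 1.67 to 2.36). With the RA-DIFF labels exchanged, it is called in the cells labelled wild type and not in the others.

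Per length of exon, the order of the 10 genes was the same in both ESC libraries: Epcam, Cdh1, Vim, Zeb1, Twist1, Snai1, Snai2, Cdh2, Zeb2 and Twist2, from 99.6 CPM per kb for Epcam to 0.0439 for Zeb2 in wild-type ESC. In RA-DIFF labelled wild type, Vim led with 361 CPM per kb, followed by Cdh2 (71.3), Zeb1 (15.3), Twist1 (8.33), Zeb2 (8.02), Cdh1 (4.08), Epcam (2.44), Snai1 (1.42), Snai2 (0.662) and Twist2 (0.101). The library labelled Htt-null began with the same 5 genes, but Snai2 (2.53 CPM per kb) there stood level with Cdh1 (2.49) and above Snai1 (2.17) and Epcam (1.76). Neighbours whose counting intervals could not separate them were Snai1 and Snai2 in wild-type ESC, Twist1 and Zeb2 in RA-DIFF labelled wild type, and Snai2 and Cdh1 in RA-DIFF labelled Htt-null.

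The genes nearest in pattern were taken as those with the smallest Euclidean distance of centred log2 CPM over the 4 libraries. Those nearest to Cdh2 were Cdh13 (0.25), which encodes another cadherin, Nr2f2 (0.34) and Ptprz1 (0.38). Those nearest to Zeb2 were Tmem35 (0.22), Pcdhb15 (0.24) and Masp1 (0.29), and those nearest to Snai2 were Tmem37 (0.13), Elk3 (0.14) and Fam183b (0.20). Cdh1 lay closest to Oas3 (0.091), Epcam to Tcea3 (0.11), Vim to Fam65b (0.23), Zeb1 to Ttc30b (0.042), Twist1 to Arhgef4 (0.068) and Snai1 to Ccdc60 (0.058). Over 4 libraries these distances only describe likeness.

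The genes that work with these 10 were then counted in lists, to be read against the shares of all genes tested, which were 34.1% higher and 25.9% lower in the cells labelled wild type and 34.5% and 24.6% in those labelled Htt-null. Of 27 genes of tight junctions, desmosomes and simple epithelial keratins, 0 were higher and 23 lower in RA-DIFF of the cells labelled wild type, and 1 was higher and 20 lower in those labelled Htt-null, with median log2 ratios of -3.49 and -2.61 over the 24 above the expression limit, 5 of which were under 1 CPM in both RA-DIFF libraries and passed through ESC. The largest differences included Cldn4, a claudin, with 78.9 and 71.6 CPM in wild-type and Htt-null ESC and 1.39 and 0.518 CPM in RA-DIFF labelled wild type and Htt-null, and Spint1, a protease inhibitor of epithelia, with 68.9, 49.7, 1.04 and 0.589 CPM in the same order. Of 10 epithelial regulators, 8 were lower and 1 higher in both pairs; 9 passed the limit, 3 of the lower ones through ESC and the higher one through RA-DIFF. Grhl2, which is known to maintain Cdh1 expression, went from 78.4 and 49.7 CPM in ESC to 0.892 and 0.427 CPM in RA-DIFF. Elf3, an epithelial Ets factor, went from 58.4 and 51.7 CPM to 2.51 and 0.630 CPM.

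Of 13 genes of the adherens junction itself, 12 of them above the expression limit, 5 were higher and 4 lower in the cells labelled wild type, near the shares of 34.1% and 25.9% over all genes, and 5 were higher and 1 lower in those labelled Htt-null (beside 34.5% and 24.6%). The higher ones included Ctnna2, the neural alpha-catenin (log2 ratios 8.15 and 8.13), and Ctnnd2, a delta-catenin of neurons (5.44 and 4.69). Ctnna2 was at 0.311 and 0.215 CPM in wild-type and Htt-null ESC and passed the expression limit through RA-DIFF, so that the limit set its direction. Among 18 other cadherins, 11 were higher and 2 lower in both pairs; the levels of Cdh13, the gene nearest to Cdh2, were 0.381 and 0.629 CPM in ESC and 88.5 and 130 CPM in RA-DIFF, and those of Cdh6 were 0.254 and 0.475 CPM in ESC and 27.2 and 59.2 CPM in RA-DIFF. Of the 13 cadherins above the expression limit, 7 of the 11 higher ones, Cdh13 and Cdh6 included, were under 1 CPM in both ESC libraries and passed through RA-DIFF, so that the limit itself set their direction. Jup, the junction protein plakoglobin, was lower in the cells labelled wild type (-1.73) and not called in those labelled Htt-null (-0.16).

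The same shares over all genes, 34.1% higher and 25.9% lower in the cells labelled wild type and 34.5% and 24.6% in those labelled Htt-null, stand beside the counts of the regulators. Of 12 other regulators tied to EMT (11 above the expression limit), 6 were higher and 4 lower in the cells labelled wild type, and 6 higher and 3 lower in those labelled Htt-null. In each pair 4 of the 6 higher ones were under 1 CPM in both ESC libraries and 1 of the lower ones in both RA-DIFF libraries. Sox9 (log2 ratios 8.62 and 8.84), Foxc1 (6.95 and 7.28) and Prrx1 (4.38 and 6.69) were higher, and Snai3, the third Snail gene, was lower (-5.49 and -5.38). Of 7 helix-loop-helix partners and inhibitors of the Twist factors, all above the limit, 6 were higher and 0 lower in both pairs, with medians of 3.29 and 3.66. They included Id3 (5.11 and 5.29) and Id2 (4.52 and 3.97), which sequester E proteins, and Tcf12 (3.29 and 3.66), an E protein. Of 8 corepressors used by Snail and Zeb factors, also all above it, 1 was higher in each pair, Ctbp1 (2.06 and 1.76), and 3 and 1 were lower. Of 24 mesenchymal effectors (23 above it), 14 were higher and 6 lower in the cells labelled wild type, and 20 higher and 2 lower in those labelled Htt-null; 4 of the higher ones in each pair were under 1 CPM in both ESC libraries.

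The miR-200 family was lower in RA-DIFF in both pairs, opposite to Zeb1 and Zeb2. All 5 of its members were called lower in the cells labelled wild type (32.2% of 689 miRNAs tested were lower) and in those labelled Htt-null (40.5% were lower). miR-141 gave 17634 counts in wild-type ESC, 12274 in Htt-null ESC, 952 in RA-DIFF labelled wild type and 395 in RA-DIFF labelled Htt-null, the largest difference of the family, at log2 ratios of -4.04 (-4.14 to -3.95) and -4.10 (-4.25 to -3.96). miR-200c gave 3100, 2631, 521 and 126 counts in the same order, at log2 ratios of -2.40 and -3.51. miR-200b, with the same seed, gave 14958, 10820, 2764 and 897 counts (-2.26 and -2.73). Both seed groups were thus lower at both chromosomal clusters, with miR-429 (-1.53 and -1.72) and miR-200a (-1.68 and -2.38) the least.

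**Figure D3:**
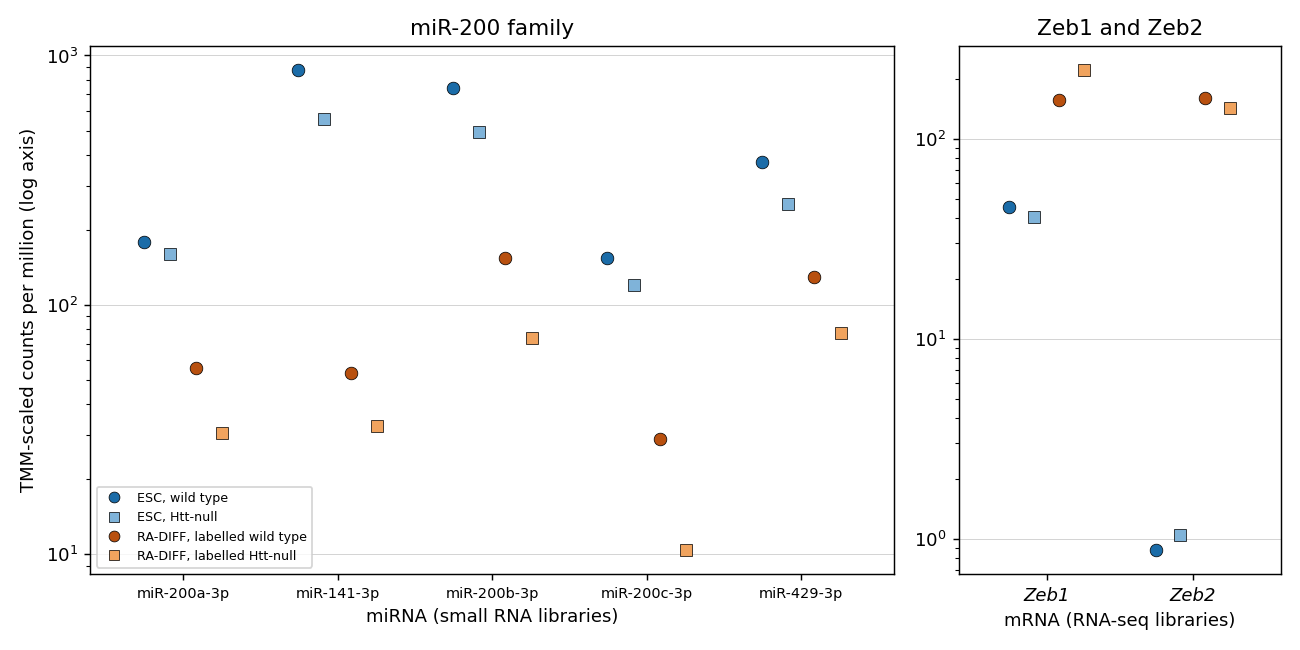
TMM-scaled CPM, on log axes, of the 5 miR-200 family miRNAs in the small RNA libraries and of Zeb1 and Zeb2 in the RNA-seq libraries. Circles are wild-type or labelled wild-type, squares Htt-null or labelled Htt-null; blue is ESC and orange RA-DIFF. For every miRNA both RA-DIFF points lie below both ESC points, and for Zeb1 and Zeb2 both lie above.

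Of the 11 other miRNAs tied to EMT or to these genes, the miR-34 family split: miR-34a, at 433 and 495 CPM in wild-type and Htt-null ESC, was at 76.2 and 62.2 CPM in RA-DIFF labelled wild type and Htt-null, while miR-34b (log2 ratios 2.08 and 1.46) and miR-34c (1.68 and 1.28), from another locus, were higher. miR-34a and miR-34b carry the same seed, as the following sequences show.
miR-34a-5p: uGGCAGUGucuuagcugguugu
miR-34b-5p: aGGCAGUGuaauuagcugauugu
Among the miRNAs tested 34.5% and 30.6% were higher in the cells labelled wild type and Htt-null. miR-30a was lower (-1.64 and -0.97), and miR-203 (1.94 and 3.27), miR-9 (4.66 and 5.82) and miR-10b (8.50 and 9.52) were higher in both pairs. miR-10b, which is known as a target of Twist1, gave 10657770 and 10131529 counts in RA-DIFF labelled wild type and Htt-null, 41.5% and 41.7% of all counts there, so that the ratios of other miRNAs depend on the scaling; the TMM factors of the small RNA libraries ran from 0.500 to 1.84. Leaving out TMM shifts every miRNA's log2 ratio by -1.17 and -1.88 in the cells labelled wild type and Htt-null. The ratios of miR-34b and miR-34c in the cells labelled Htt-null are then -0.41 and -0.60, and that of miR-34c in the cells labelled wild type is 0.51, inside the limit. With median-of-ratios scaling, miR-30a in the cells labelled Htt-null is at -0.70, also inside it. miR-205 was called higher in the cells labelled wild type (1.38) but not in those labelled Htt-null, where its ratio was -0.64; without TMM the first is 0.21 and not called and the second is -2.52, past the limit, and with the RA-DIFF labels exchanged they are 0.073 and 0.66, both inside it.

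Between the ESC lines, the differences of the 10 genes were small. None was called (0 higher and 0 lower, against 5.14% higher and 3.47% lower of all genes tested), and their log2 ratios lay between -0.19 for Epcam and 0.53 for Snai1 (0.13 to 0.94). The median was 0.06, beside -0.04 over all genes. Counting intervals off 0 were found for Cdh2 (0.46, 0.18 to 0.75), Snai1, Zeb1 (-0.17, -0.24 to -0.10), Epcam (-0.19, -0.22 to -0.16), Cdh1 and Vim, but they hold no spread between cultures. Without TMM the ratio of Vim is 0.00082, so that its sign rests on the scaling. For Twist2, with 1 count against 0, no difference was detectable at this depth.

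**Figure D4:**
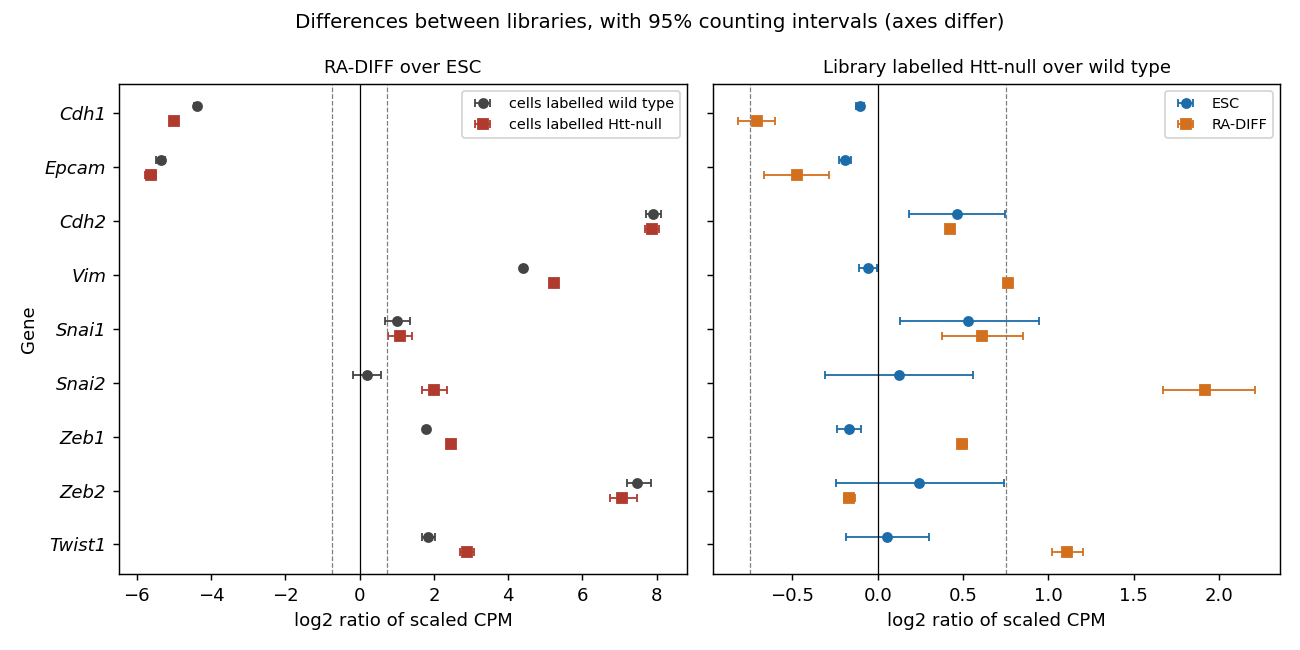
Log2 ratios of TMM-scaled CPM for the 9 genes above the expression limit, RA-DIFF over ESC at left and the library labelled Htt-null over the wild-type one at right, on different axes; bars are exact 95% counting intervals and dashed lines the limits of 0.75. At right, the ESC values lie within the limits for all 9 genes, and in RA-DIFF Snai2, Twist1 and Vim lie beyond them.

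The related lists held calls in ESC, to be read against the 5.14% higher and 3.47% lower over all genes tested. Of the 12 other EMT regulators, 11 of them above the expression limit, Htt-null ESC had 3 higher and 2 lower, among them Snai3 with 2.18 CPM in wild-type and 6.41 CPM in Htt-null ESC. The other two higher ones, Foxc2 (34 and 50 counts) and Msx2 (18 and 30 counts), were under 1 CPM in both ESC libraries, and with the mean of the 4 log2 CPM values as the limit 0 are higher and 2 lower. Of the 24 mesenchymal effectors (23 above the limit), 2 were higher and 7 lower, the latter including Col3a1 (log2 ratio -1.54) and Acta2 (-1.25). Of these calls, that of Lum (higher) rests on 0 and 1 counts and those of Dcn and Postn (lower) on 10 and 0 and on 66 and 27 counts in wild-type and Htt-null ESC. These 3 genes, Foxc2 and Msx2 are named after their values were seen and passed the expression limit through RA-DIFF, and for Lum no difference was detectable at this depth. Of the 27 epithelial junction genes (24 above the limit), 0 were higher and 4 lower, including Dsp (-0.87) and Dsc2 (-1.13). Of 8 neural progenitor markers, 2 were higher (Nes and Sox1, both 0.81) and 1 lower, and of 10 neuron markers 2 were higher, with Tubb3 at 1.00, and 0 lower. Pluripotency, neural crest and extraembryonic endoderm markers each had 0 higher and 1 lower. The lower progenitor and crest markers and 1 of the higher neuron markers were under 1 CPM in both ESC libraries. The miR-200 family had 0 of 5 calls (23.7% of miRNAs tested were higher and 15.1% lower), and its ratios lay between -0.65 for miR-141 and -0.16 for miR-200a; without TMM that of miR-200a is 0.075.

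Within the RA-DIFF pair, 3 of the 10 genes were called higher in RA-DIFF labelled Htt-null and 0 lower, where 11.7% of all genes tested were higher and 8.99% lower. Snai2, at 1.34 CPM in the library labelled wild type and 5.12 CPM in the one labelled Htt-null, differed most (log2 ratio 1.92, 1.67 to 2.21), followed by Twist1 (1.11, 1.02 to 1.20) and Vim (0.76, 0.76 to 0.77). Snai2 ranked 363rd and Twist1 1112th from the top of the 15489 genes. Twist2, below the expression limit, went the same way, with 36 and 154 counts (ratio 4.87, 3.37 to 7.21). The call of Vim lies at the limit of 0.75 and is lost with a limit of 1 or without TMM scaling, and both Vim and Twist1 lose theirs at an assumed dispersion of 0.1. With the labels exchanged, the same 3 genes are lower in the Htt-null library.

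The adhesion genes and Zeb2 differed less. Cdh1 (log2 ratio -0.71, -0.81 to -0.60) and Epcam (-0.47, -0.66 to -0.29) were lower and Cdh2 (0.42, 0.41 to 0.44), Zeb1 (0.50, 0.47 to 0.53) and Snai1 (0.61, 0.38 to 0.85) higher in RA-DIFF labelled Htt-null, all inside the limit. Zeb2 stood at -0.17 (-0.20 to -0.13), so that the Zeb paralogs were on opposite sides of 0. Across all 9 genes the median was 0.50, beside -0.01 over all genes.

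Genes of mesenchyme differed between the RA-DIFF libraries along with Snai2, Twist1 and Vim. Of 24 mesenchymal effectors, 21 were called higher in RA-DIFF labelled Htt-null and 0 lower (beside 11.7% and 8.99% of all genes tested), the 23 above the expression limit lying between 0.49 and 4.05 with a median of 1.70, and their summed level was 1353 and 4696 CPM in the libraries labelled wild type and Htt-null. The largest were Lox, a collagen cross-linking enzyme (2.08 and 34.8 CPM), Acta2, smooth muscle actin (41.0 and 635 CPM), Tagln, an actin-binding protein of smooth muscle (12.3 and 161 CPM), and Dcn, the proteoglycan decorin (18.2 and 109 CPM). Neuronal markers went the other way, 9 of 10 being lower in RA-DIFF labelled Htt-null, with a sum of 2826 and 1267 CPM, and 4 of 7 neural crest markers (6 above the expression limit) were lower as well, with sums of 163 and 44.4 CPM. Of these 4, Foxd3 (31 and 14 counts) passed the limit through ESC, and 2 were under 1 CPM in both ESC libraries and passed through RA-DIFF. With the mean of the 4 log2 CPM values as the limit, 2 neural crest markers are lower. The ratio of 1 of the 6 was above 0. Of the remaining marker lists, pluripotency had 1 gene higher and 9 lower, neural progenitors 0 higher and 3 lower, extraembryonic endoderm 2 of 8 (5 above the limit) higher and 0 lower, with sums of 18.5 and 59.8 CPM, and surface ectoderm 1 of 6 (2 above the limit) higher and 1 lower. The 2 higher endoderm genes were Dab2 (12.3 and 42.8 CPM) and Foxa2 (1.88 and 12.3 CPM), while Gata4 went from 2.21 to 2.03 CPM. None of the markers in these lists was at 0 in either RA-DIFF library. The part of these cell type differences in the ratios of Snai2, Twist1 and Vim was not tested.

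**Figure D5:**
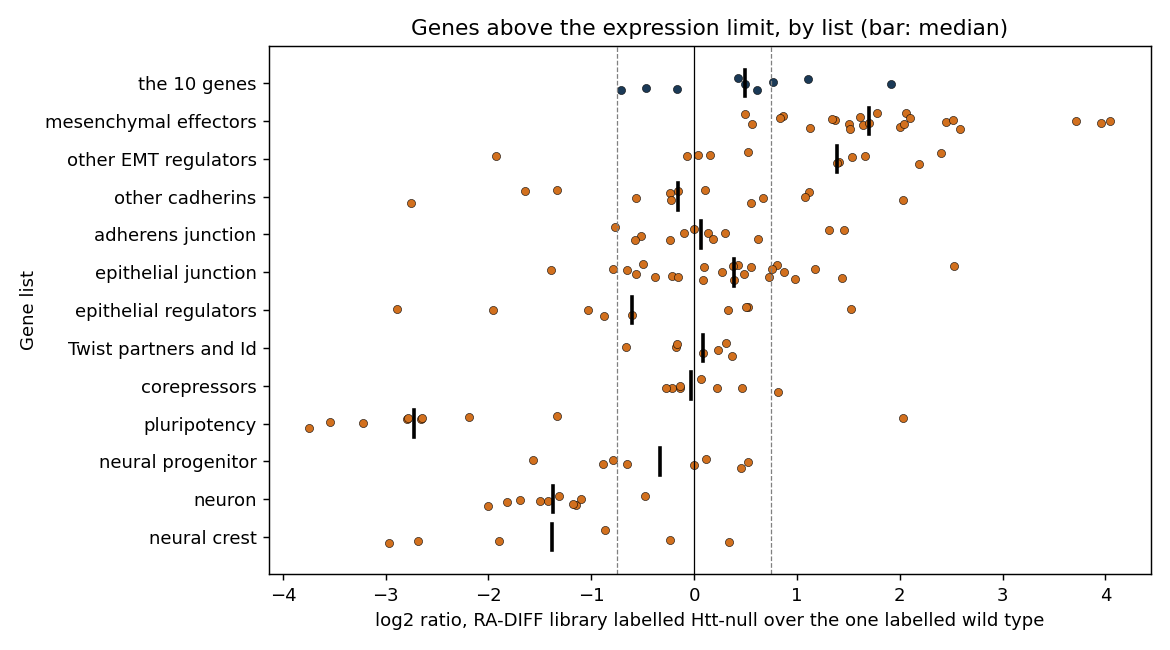
Log2 ratio of RA-DIFF labelled Htt-null to RA-DIFF labelled wild type, 1 point per gene above the expression limit, for the 10 genes and 12 lists; the vertical position within a list is jittered, black bars are medians and dashed lines the limits of 0.75. All mesenchymal effectors shown lie above 0, and all neuron markers below 0.

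Of the 12 other EMT regulators (11 above the expression limit), RA-DIFF labelled Htt-null had 6 higher and 1 lower (median log2 ratio 1.39), beside 11.7% and 8.99% of all genes tested. Among the 6, Snai3 (3 and 13 counts) was under 1 CPM in both RA-DIFF libraries and passed through ESC. Foxc2, and Msx2 as the lower one, were under 1 CPM in both ESC libraries and passed through RA-DIFF. With the mean of the 4 log2 CPM values as the limit, 4 are higher and 0 lower, beside 11% and 7.37%. Foxc2 (2.18) and Prrx1 (1.53), which are transcription factors of mesoderm and head mesenchyme, were among the higher ones. Of the 27 epithelial junction genes, 7 were higher and 2 lower (median 0.38 over the 24 above the expression limit). The higher ones included the desmosomal genes Dsc2 (2.53) and Pkp2 (1.44), and the lower ones were Cldn4 (-1.39) and Spint1 (-0.79). Of the 10 epithelial regulators (9 above the limit) 4 were lower and 1 higher. Their median of -0.60 is the value of Ovol2, which had 3 and 1 counts in the libraries labelled wild type and Htt-null. Of the 4 lower ones, 1 was under 1 CPM in both RA-DIFF libraries and 1 in both ESC libraries. With the mean of the 4 log2 CPM values as the limit, 3 are lower and 1 higher. Esrp1, an epithelial splicing factor, was at 2.54 and 0.325 CPM and Elf3 at 2.51 and 0.630 CPM in the same order. Of the other cadherins, 3 were higher, Cdh20 among them (2.04), and 3 lower, Cdh8 among them (-2.75). Of the adherens junction genes, Jup (1.46) and Vcl (1.31) were called higher and 1 gene lower, and of the Twist partners and corepressors 1 corepressor, Ajuba, was called (higher, 0.81).

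The miR-200 family was lower in RA-DIFF labelled Htt-null. Called were 3 of the 5 members, against 12% of miRNAs tested (14.7% were higher): miR-200c (log2 ratio -1.48, -1.78 to -1.20), miR-200b (-1.06, -1.17 to -0.95) and miR-200a (-0.85, -1.03 to -0.68). The other two, miR-429 (-0.74) and miR-141 (-0.71), lay just inside the limit. Zeb1 was at 0.50 and Zeb2 at -0.17 in the same pair of RNA-seq libraries.

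The largest differences among the other miRNAs were those of miR-199a and miR-214, which come in part from Dnm3os, a long non-coding transcript that Twist1 is known to activate. miR-199a-5p gave 116 counts in the library labelled wild type and 422 in the one labelled Htt-null (log2 ratio 2.40, 2.12 to 2.73), miR-199a-3p gave 169 and 587 (2.34), and miR-214-3p gave 50 and 233 (2.73, 2.33 to 3.25). Dnm3os, counted in the RNA-seq libraries, gave 1223 and 3186 reads (1.57, 1.47 to 1.66), and so both assays show the same direction under the same labels. In ESC, Dnm3os gave 44 and 12 reads in wild-type and Htt-null cells, and the log2 ratios of Htt-null to wild-type ESC were -0.69 for miR-199a-5p, -0.28 for miR-199a-3p and -0.55 for miR-214-3p, all inside the limit. The stage at which each was highest differed. miR-199a-5p was at 199 and 123 CPM in wild-type and Htt-null ESC and at 6.48 and 34.8 CPM in RA-DIFF labelled wild type and Htt-null, and so was highest in ESC. miR-199a-3p, from the same hairpin, was at 17.2, 14.1, 9.45 and 48.4 CPM in that order and miR-214-3p at 3.72, 2.50, 2.79 and 19.2 CPM, both highest in RA-DIFF labelled Htt-null, as was Dnm3os. For miR-199a-3p this depends on the scaling, since its RA response in the cells labelled Htt-null is -0.10 without TMM. A second miR-199a gene lies on chromosome 9, outside Dnm3os, and yields the same mature sequence, so the locus of origin cannot be told apart. miR-205, opposite to these, was lower in RA-DIFF labelled Htt-null (-1.30), and miR-9 was higher (1.13), but without TMM miR-9 is at 0.65, inside the limit.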

How the data were processed

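RNA-seq and small RNA-seq were made once each from wild-type and Htt-null ESC and RA-DIFF cells (8 libraries, 50 bp reads). According to the Methods and the submitters' processing notes, the authors aligned strand-specific (dUTP) paired reads to GRCm38 with TopHat2 2.0.14 and counted genes with HTSeq 0.6.1; the Methods name its counting mode and state default settings otherwise, without naming the strand option. Small RNA reads were trimmed with cutadapt 1.3 and mapped to mature miRNAs with BWA 0.7.5a-r418. The deposited values are raw counts per gene or miRNA, with no replicates pooled. Each column was assigned by its name, and groups by the labels.

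Here, log2 CPM (prior count 2) was computed with TMM factors over the 4 libraries of an assay in edgeR 4.0.16 (R 4.3.3), on all genes, and summarised with Python 3.11.15. A condition with 1 library has no spread of its own, so edgeR's quasi-likelihood test was not run, nor was an additive fit of stage and genotype, which would leave 1 residual degree of freedom and take the interaction as spread; edgeR's exact test at assumed dispersions of 0.1 and 0.01 was an alternative. Call limits are those given in the text; the expression limit was set on edgeR's average log2 CPM, not on the mean of the 4 log2 values. Tested on simulated counts for the ESC pair, the call step found 200 of 200 changed genes and called 40 unchanged ones among 15485 tested. How often the call step is right at the spread between real cultures was not tested, since each condition has 1 library. Exon lengths and 3' untranslated regions came from GENCODE vM21, promoters and miRNAs from RefSeq.

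The 10 genes, the 14 gene lists and the 16 miRNAs were chosen with earlier results of these data known. From the lists, the genes named are among the 4 per list and comparison with the largest log2 ratio past the limits, given 100 or more counts in one of the libraries compared; the 3 nearest genes per gene, overlapping genes, Htt and Dnm3os are named as well. Some genes that this selection covers are not reported here. Alternatives were other scaling (median-of-ratios factors, library size alone), a prior count of 0.25, no expression limit, a log2 limit of 1, the exact tests and exchanged RA-DIFF labels; the exchange for miRNAs and the mean of the 4 log2 CPM values as the expression limit were added after the data had been seen.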

Additional observations from a re-analysis of the deposited data

Results flagged for a closer look

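Several differences between the library labelled Htt-null and that of the wild type pointed one way in ESC and the other way in RA-DIFF, with counting intervals off 0 at both stages. The difference between the stages was not tested, since each condition has 1 library, and the sign in RA-DIFF depends on the labels. Zeb1 had log2 ratios of -0.17 in ESC and 0.50 in RA-DIFF, and Vim of -0.055 and 0.76. Both are thus opposite in sign as labelled and alike in sign with the RA-DIFF labels exchanged. Without TMM scaling the ESC value of Vim is 0.00082, so that its opposite sign is lost, while Zeb1 keeps its own (-0.11 and 0.44).

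Among the miRNAs, the ratios in ESC and RA-DIFF were -0.66 and 0.67 for miR-203, 0.19 and -0.29 for miR-34a, -0.37 and 0.31 for miR-30a, and -0.53 and 0.49 for miR-10b. Without TMM the RA-DIFF value of miR-30a is -0.17, the same sign as in ESC, and that of miR-10b is 0.0059, close to 0; those of miR-203 become -0.43 and 0.19 and those of miR-34a 0.42 and -0.77, the last past the limit. Those of the miRNAs shared with Dnm3os were -0.69 and 2.40 for miR-199a-5p, -0.28 and 2.34 for miR-199a-3p and -0.55 and 2.73 for miR-214-3p, and those of miR-205 were 0.72 and -1.30. For 2 miRNAs the RA response also had opposite signs: miR-205 was at 1.38 in the cells labelled wild type and -0.64 in those labelled Htt-null, and miR-199a-3p at -0.85 and 1.77. Without TMM those of miR-199a-3p are -2.01 and -0.10, so that the opposite signs are lost. With the RA-DIFF labels exchanged those of miR-205 are 0.073 and 0.66, and its opposite signs are lost as well.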

How the results depend on the processing

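Each condition has 1 library, so no comparison was repeated without a library. A fit of stage with the line as a block, whose residual would be the difference in RA response between the lines, was not run. Without the expression limit 1 gene, Twist2, was called (higher) in Htt-null ESC, from 1 count against 0. At an assumed dispersion of 0.1, 1 gene (Snai2) kept its call in the RA-DIFF pair, and with library size alone 1 gene (Cdh1) became lower there. For the miR-200 family, median-of-ratios scaling called 1 member lower in Htt-null ESC, and library size alone called all 5 lower in the RA-DIFF pair. Library size alone, which lowers the RA response of every miRNA, also turned those of miR-34b, miR-34c and miR-199a-3p in the cells labelled Htt-null to -0.41, -0.60 and -0.10. With the mean of the 4 log2 CPM values as the expression limit, 14417 genes were tested and 0 calls of the 10 genes changed in each comparison. The other counts of called genes among the 10 stayed within 1.5 times under scaling, prior count, fold limit and exact tests. Counts of the related lists were not repeated with a log2 limit of 1 or the exact tests. At a limit of 1 the epithelial junction genes Cldn3 (-0.76), Dsp (-0.87) and Krt7 (-0.93) would not be called lower in Htt-null ESC.

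With the RA-DIFF labels exchanged, the log2 change of the Cdh1 to Cdh2 ratio became -13.43 in the cells labelled wild type and -11.73 in those labelled Htt-null. In the RA-DIFF pair 0 of the 10 genes were then higher and 3 lower, and 3 members of the miR-200 family higher and 0 lower. The log2 ratios of the RA-DIFF pair became -1.92 for Snai2, -1.11 for Twist1, -0.76 for Vim, -4.05 for Lox, -3.95 for Acta2, -3.71 for Tagln, -2.58 for Dcn, -2.18 for Foxc2, -1.53 for Prrx1, -2.53 for Dsc2, -1.44 for Pkp2, 1.39 for Cldn4, 2.89 for Esrp1, 1.957 for Elf3, 2.75 for Cdh8, -2.04 for Cdh20, -1.46 for Jup, -1.31 for Vcl and -0.81 for Ajuba. For miRNAs they became 0.85 for miR-200a, 1.06 for miR-200b, 1.48 for miR-200c, 1.303 for miR-205, -1.13 for miR-9, -2.40 for miR-199a-5p, -2.34 for miR-199a-3p and -2.73 for miR-214-3p. The RA response of miR-199a-3p became 1.49 in the cells labelled wild type and -0.57 in those labelled Htt-null. These changes follow from the exchange itself. Low counts in ESC, from 68 for Zeb2 to 215 for Cdh2, with Snai1 and Snai2 between them, limit the precision of their ratios.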
